A study of Mus musculus with 6 samples.

Results

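The cytosolic ribosomal protein genes encode the proteins of the small (40S) and large (60S) subunits of the ribosome that translates mRNA outside mitochondria. They were chosen by symbol: names beginning Rps or Rpl followed by a number, together with Rplp0, Rplp1, Rplp2, Rpsa and Rps27rt, leaving out pseudogene features (-ps) and the S6 kinases. The rule gave 84 genes, 33 of the small and 51 of the large subunit, among 31053 features, and 83 of them had at least 1 UMI (a read group that counts as 1 captured mRNA molecule). Rpl10l, a testis-type copy of Rpl10, had none. The 84 genes held 52836676 UMIs, which was 16.1% of all UMIs other than those of haemoglobin genes. The 78 mitochondrial ribosomal protein genes, which serve the separate ribosome inside mitochondria, held 0.450%.

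The samples were 6 whole colonic tumours of male mice, 3 in each group, dissociated, sorted for live (DAPI-negative) cells and profiled by 10x 3′ single-cell RNA sequencing. In the Apc ICI group, VilCreER Apcfl/fl mice received 70 ul of 100 uM 4-OH tamoxifen as 1 injection beneath the colonic mucosa. The AOM PN group, VilcreER P53fl/fl Notch1Tg mice, received 2 mg tamoxifen into the peritoneum and, from day 4, 10 mg/kg of the carcinogen azoxymethane (AOM) weekly for 6 weeks, and was labelled as an ageing tumour group. Both carried the tamoxifen-activated Cre recombinase under the Villin promoter, which is active in gut epithelium, so by design the blood-derived cells of the tumours keep intact alleles. Ages were not given in the labels, and genotype, route of induction and carcinogen differed together between the groups, so their parts cannot be told apart. Libraries are the replicates. The labels do not say that those of a group came from separate animals, and p-values then cover only the variation among these 6 libraries, which may be technical.

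Libraries held 59309093 to 98583066 UMIs over 6873 to 16137 barcodes, with haemoglobin at 1.87 to 61.4% of UMIs and the ribosomal protein genes at 13.5 to 18.4% of the remainder. After filters 4801 to 11475 cells per library were kept, and pairs of libraries shared 10 to 52 barcodes (0.145 to 0.508% of the smaller). Cells were clustered without the ribosomal protein genes and named by markers: in the Apc ICI and AOM PN groups the classes held 2412 and 2467 epithelial-like cells, 6776 and 9778 neutrophil-like cells, 2040 and 6428 monocyte/macrophage-like cells, 347 and 1385 dendritic-like cells, 1099 and 4057 T/NK-like cells, and 459 and 421 B-like cells. Erythroid-like cells numbered 3357 and 1523, and mast-like cells 50 and 3725. As a check of the alleles, epithelial-like cells had Trp53 at 144 to 155 CPM in the Apc ICI and 52.8 to 66.7 in the AOM PN libraries, and Apc at 73.4 to 85.5 and 55.3 to 72.0 (CPM are the UMIs of a gene scaled to a common total, here without haemoglobin). Apc was thus not lower in the group with floxed Apc. Notch1 was at 32.3 to 36.8 CPM in the Apc ICI and 35.7 to 55.8 in the AOM PN libraries, which overlapped. The deleted exons are not given in the sources used here, and a 3′ tag outside the deleted part does not report on it.

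A ribosome needs most of these proteins in equal numbers, and their mRNAs are short, abundant and translated under shared control. Many begin with a C followed by a run of pyrimidines at the cap, the 5′ terminal oligopyrimidine (TOP) motif, through which the kinase mTOR sets their translation. Several members have copies elsewhere in the genome: Rps27l and Rpl22l1 are diverged paralogues with their own promoters, while Rps27rt is a retrogene copy of Rps27. Surplus Rpl5 and Rpl11, together with 5S rRNA, bind Mdm2 and stabilise p53, and in humans loss of 1 copy of genes such as RPS19 causes Diamond-Blackfan anaemia. In intestinal tumours, Myc and Wnt signalling are known to raise ribosome production.

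The start sites of 5 members are shown because they carry the motif that marks these mRNAs, and because Rps27 and Rps27rt are the copy pair on which a later result turns. Each line is 25 bases on the gene's strand, 5′ to 3′, from 5 bases before the start annotated by RefSeq (GRCm38.p6). Capitals mark a pyrimidine run beginning with C at or within 5 bases of that start.
Rps27, chr3:90213629-90213653, minus strand: tcgctCCTTTCCggcggtgacgacc
Rps27rt, chr9:114982720-114982744, minus strand: ccttgCTTTCCggcggtgacgacct
Rps27l, chr9:66946081-66946105, plus strand: ccgccgCCTCTatcccggaagttgc
Rps6, chr4:86857348-86857372, minus strand: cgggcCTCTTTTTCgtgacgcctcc
Rpl35, chr2:39005112-39005136, minus strand: ctttcCTCTTTCTCTCgaaccaggc

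A run of at least 5 letters C or T beginning with C exactly at the annotated start, searched on the gene's strand only, was present in 14 of the 64 members matched in the RefSeq table (21.9%), against 813 of 27025 genes (3.01%). Allowing 5 bases either way gave 30 members (46.9%) against 21.2% of genes. None of the 69 matched mitochondrial ribosomal protein genes had the run at its start. Annotated starts are often a few bases off, so a missing match says only that these letters are not at that position.

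Rps27 (chr3:90212522-90213651, minus strand) and Rps27rt (chr9:114982366-114982739, minus strand, GENCODE vM21) are nearly the same at the RNA level. The 345-base transcript of Rps27 and the 374-base transcript of Rps27rt shared a run of 341 identical bases that includes the whole reading frame, and Rps27rt ran 33 bases further at its 3′ end. The 3′ ends are shown because they are where reads could separate the pair. Capitals mark bases past the shared run.
Rps27, transcript bases 334 to 345: cgttttggatat
Rps27rt, transcript bases 330 to 359: cgttttggatatATAAAAAAAAAAAAAAAA

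Only a read that reached past the shared run could separate the copies. The bases shown there were AT and then only A, and whether reads were told apart by them was not tested. Some 150-base windows of both genes also matched a further gene, Gm17241, which was not examined. By comparison, the coding sequence of the diverged Rps27l was 79.2% identical to that of Rps27 over the aligned bases, and none of its 150-base windows matched another gene. Of windows of 150 bases in the last 300 bases of each gene's transcripts, fewer than 50% were unique to the gene for 14 members, and all were unique for 28. Rpl35 (6.62%), Rps27rt (19.2%), Rps12 (20.8%), Rps27a (22.5%), Rps6 (27.8%), Rpl10 (32.7%), Rpl23a (33.8%) and Rpl3 (42.0%) were among the 14. The levels of these genes are uncertain, because how reads matching several genes were handled is not given in the sources used here. Genes with few unique windows had a median of 432158 UMIs, against 688382 for the other 70 members.

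Members differed in abundance by several orders of magnitude. Since each captured molecule gives 1 UMI at its 3′ end, these counts need no scaling by length. Rps24 (1322605 UMIs), Rpl13 (1199614), Rpl41 (1196055) and Rpl23 (1141813) were among the 5 most abundant. At the other end stood the copies with tissue-restricted or unclear roles: Rpl39l held 388 UMIs, Rpl3l 1804, Rps27rt 9102 and Rpl7l1 17265.

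The share of UMIs held by the ribosomal protein genes separated the cell classes more than it separated the tumour groups. B-like cells held the highest share in 6 of 6 libraries, 30.1% ± 1.46 (SD, n = 6), and neutrophil-like cells the lowest in 6 of 6, 3.31% ± 0.698. Epithelial-like cells held 21.1% ± 1.48, T/NK-like cells 21.1% ± 2.43, dendritic-like cells 20.8% ± 1.13, monocyte/macrophage-like cells 16.2% ± 1.74 and erythroid-like cells 9.55% ± 1.04. Of the 21 pairs of these 7 classes, 18 differed in the same direction in all 6 libraries (two-sided exact sign-flip permutation p = 0.03125 each, the smallest that 6 libraries allow; Benjamini-Hochberg 0.0365). The epithelial-like, dendritic-like and T/NK-like classes did not differ from each other in a common direction over the 6 libraries. The exact permutation p for these pairs ran from 0.656 to 1 (n = 6). For dendritic-like against T/NK-like cells, this test joined opposite directions. Dendritic-like cells held more in every Apc ICI library (means 20.5 against 18.96%) and less in every AOM PN library (21.1 against 23.3%). The gap was small in Apc ICI 2 (19.58 against 19.55%) and in AOM PN 3 (22.64 against 22.75%). Mast-like cells of the AOM PN group held 20.8% ± 1.11 (n = 3), and antibody-secreting plasma-like cells there 12.4% ± 2.15 (n = 3).

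**Figure D1:**
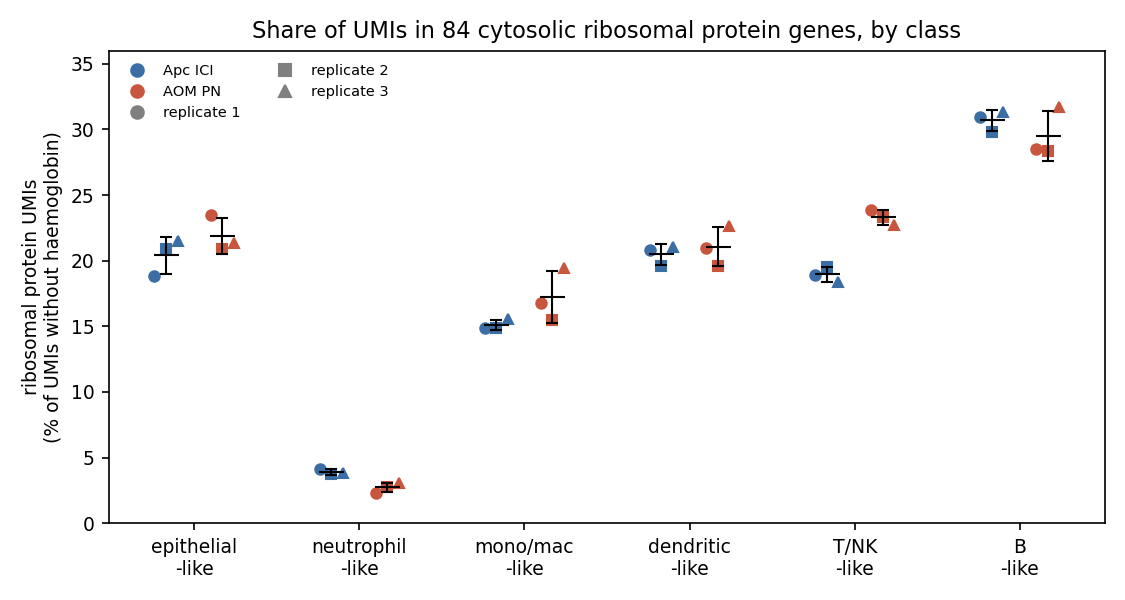
Ribosomal protein UMIs as a percentage of UMIs without haemoglobin (y axis) in 6 cell classes (x axis); each point is a library, and the dash and bar are the mean ± SD (n = 3). B-like cells sit near 30% and neutrophil-like cells below 5% in every library, and the groups separate in the neutrophil-like and T/NK-like classes.

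Depth bore on the epithelial-like value. With cells of at least 1500 UMIs thinned to 1500, the epithelial-like share fell below those of dendritic-like and T/NK-like cells by 2.61 and 2.80 percentage points, where the unthinned differences were 0.358 and 0.0118. The lead of epithelial-like over monocyte/macrophage-like cells narrowed from 4.97 to 1.63 points, with both at 15.5% in AOM PN 2 and the order turned in AOM PN 3 (14.2 against 19.3%). Epithelial-like cells under 1500 UMIs held 14.6, 10.3 and 7.37% in AOM PN 1 to 3. Those of 20000 or more held 24.5, 22.7 and 25.5% there. In the Apc ICI libraries cells under 1500 UMIs held 18.4 to 19.3%. Within the class, the cluster led by Gm26917, Tcim and Lars2 (43 Apc ICI and 1260 AOM PN cells) held 7.83%, and the enteroendocrine-gene cluster led by Pyy, Chgb and Gpx2 held 32.3%. Both were shallow, with medians of 1181 and 1196.5 UMIs, and the cluster led by Mt4 (median 1404) held 29.3%. Clusters of low depth thus lay at both ends of the class. Gm26917 is an rRNA-like transcript.

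The make-up of the ribosomal protein pool also differed by class. Of 79 members that reached 0.1% of the pool in any class, 33 had class means at least 2-fold apart and 10 at least 3-fold, with a median ratio of 1.87, while Rpl27a ranged over only 1.2-fold. Rps27, a zinc-finger protein of the small subunit, took 3.19% ± 0.690 (n = 6) of the pool in neutrophil-like cells and 0.492% ± 0.0829 in erythroid-like cells, the extremes in 6 of 6 libraries. Rps9, whose protein lies near the mRNA entry of the small subunit, took 3.61, 4.24 and 4.89% of the neutrophil-like pool in Apc ICI 1 to 3 and 8.07, 6.18 and 6.58% in AOM PN 1 to 3. In T/NK-like cells Rps9 took 1.31 to 1.76%. Rps25, which assists initiation at certain internal ribosome entry sites, and Rps27a, made as a fusion with ubiquitin, were likewise highest in neutrophil-like cells in 6 of 6 libraries.

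Erythroid-like cells stood apart by Rpl41, one of the smallest known proteins, and by Rplp0, the base of the ribosomal stalk. Rpl41 took 9.08% ± 1.93 of their pool (n = 6; 6.15 to 10.9% by library) against 1.35% ± 0.173 in B-like cells, and Rplp0 took 4.18% ± 0.739 against 1.01% ± 0.109. Epithelial-like cells had the highest Rpl10a (1.16%) and Rpl3 (1.09%), the latter at the peptidyl transferase centre, and neutrophil-like cells the lowest (0.317% and 0.299%), in 6 of 6 libraries. Rps27l, a p53-inducible paralogue of Rps27, took 0.296% of the pool in dendritic-like and 0.290% in epithelial-like cells against 0.0429% in B-like cells. B-like cells were lowest for it in 6 of 6 libraries, and dendritic-like cells highest in 4 of 6. These 10 genes were picked by the size of this ratio, so the ratios are a description and were given no test.

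**Figure D2:**
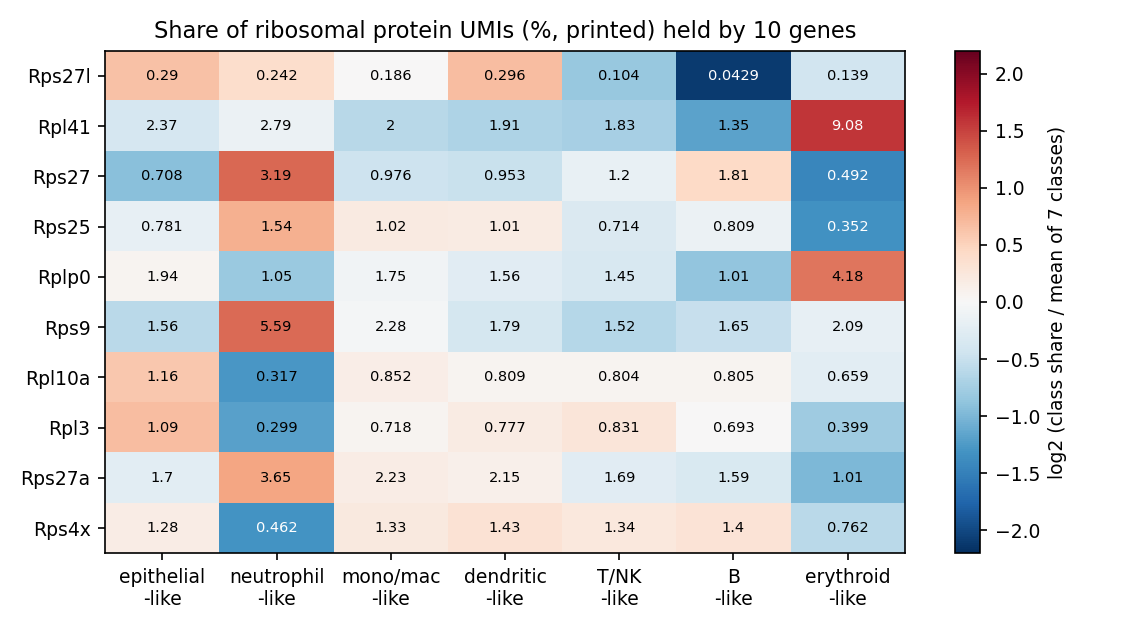
Mean share of the ribosomal protein UMIs (printed, in %) held by the 10 genes with the largest class-to-class ratio (rows) in 7 cell classes (columns); colour is the log2 ratio to the mean of the 7 classes. Rps27, Rps9, Rps25 and Rps27a are highest in neutrophil-like cells, and Rpl41 and Rplp0 in erythroid-like cells.

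Rpl3l, a paralogue of Rpl3 known from heart and skeletal muscle, was counted mainly in neutrophil-like cells. Its level there was 9.91 to 27.4 CPM of non-haemoglobin UMIs over the 6 libraries (1119 UMIs), against means of 5.61 in monocyte/macrophage-like, 0.147 in epithelial-like and 0.410 in T/NK-like cells. All its 150-base windows were unique. Rpl3l (chr17:24727820-24736143, plus strand) ends 498 bases before Msrb1 (chr17:24736642-24742778, plus strand), a selenoprotein gene with means of 2142 in neutrophil-like, 630 in monocyte/macrophage-like and 66.6 in epithelial-like cells on the same scale. Whether reads of Msrb1 take part in the Rpl3l count was not tested.

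Between the tumour groups, the share was lower in AOM PN neutrophil-like cells and higher in AOM PN T/NK-like cells. In neutrophil-like cells it was 4.14, 3.73 and 3.81% in Apc ICI 1 to 3 and 2.32, 2.78 and 3.06% in AOM PN 1 to 3 (means 3.89% ± 0.217 and 2.72% ± 0.369, SD, n = 3). In T/NK-like cells it was 18.9, 19.6 and 18.4% against 23.8, 23.3 and 22.8% (18.96% ± 0.578 and 23.3% ± 0.539). The groups did not overlap in either class, and the two-sided exact permutation p was 0.1, the smallest that 3 against 3 allows. The T/NK-like difference of 4.33 points was 7.79 as a mean over cells and 1.27 when the 4 clusters with enough cells in every library were weighted equally. The clusters led by Tnfrsf4 and by Ccl5 held 98 and 91 Apc ICI but 1088 and 907 AOM PN cells, at 18.7 and 28.7% ribosomal protein UMIs. The share is a fraction of all UMIs, so a change in these mRNAs and an opposite change in all others cannot be told apart.

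In the other classes the groups overlapped. Epithelial-like cells held 18.8, 20.9 and 21.5% in the Apc ICI and 23.5, 20.9 and 21.3% in the AOM PN libraries (exact permutation p = 0.4). The sign of this difference of 1.47 points depended on how cells were weighed: it was -4.40 as a mean over cells, -1.53 after thinning and 3.66 without the Gm26917 cluster. Monocyte/macrophage-like cells held 15.1% ± 0.383 and 17.2% ± 2.00 (p = 0.2), dendritic-like cells 20.5% ± 0.788 and 21.1% ± 1.52 (p = 0.6), B-like cells 30.7% ± 0.791 and 29.5% ± 1.91 (p = 0.4), and erythroid-like cells 9.55% in both (p = 1.0), all by the exact permutation test with n = 3 per group. The B-like difference of -1.16 points changed sign to 2.98 as a mean over cells. After adjustment over the 7 classes no p was below 0.35.

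Single genes were tested with edgeR's quasi-likelihood test on UMI sums per library and class, adjusted over all genes (threshold 0.05). Levels below are CPM after TMM scaling, with haemoglobin UMIs in the total, and a log2 change is AOM PN over Apc ICI. Rpl10l was tested in no class, Rpl39l and Rpl3l only where their counts allowed, so 81 to 83 of the 84 members were tested per class. Shares of all genes called are given for the main fits. They were not counted for the other settings tried, so member counts there have no such share beside them.

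**Figure D3:**
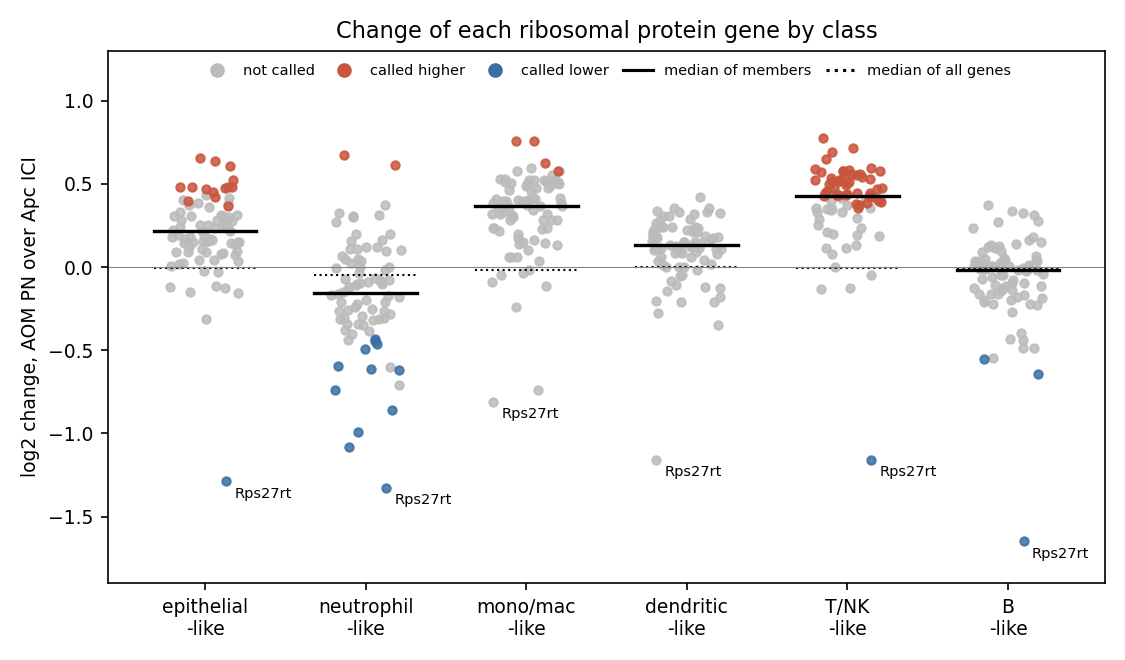
Log2 change (AOM PN over Apc ICI, y axis) of each tested ribosomal protein gene in 6 classes (x axis), coloured by its call; the solid line is the median of the members and the dotted line that of all genes tested. Rpl39l, with few counts, is left out. The T/NK-like members sit as a body above 0 and Rps27rt is the lowest gene in each class.

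In T/NK-like cells most of the ribosomal protein genes rose together. Of 82 tested, 50 were higher in AOM PN and 1, Rps27rt, was lower, where 3.69% of all 10552 genes tested were called higher and 3.04% lower. The groups did not overlap for 69 of 82, against 30.9% of all genes. The members' median log2 change was 0.43, against -0.01 over all genes, with 23 of 33 small-subunit and 27 of 49 large-subunit genes called higher. Rps12 had 2553, 2710 and 2521 CPM in Apc ICI 1 to 3 and 4414, 4322 and 4574 in AOM PN 1 to 3, with no overlap between groups. Its log2 change was 0.77 ± 0.08 (SE), with an edgeR adjusted p of 0.0108. Rpl10, which is needed for the large subunit to join the small one, went from 1627, 1596 and 1414 to 2375, 2531 and 2584 CPM (0.69 ± 0.09, edgeR adjusted p = 0.0134). Rpl35 and Rpl23a, at the rim of the tunnel through which the new protein leaves, had log2 changes of 0.72 (edgeR adjusted p = 0.046) and 0.65 (0.0171).

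Rpl22, whose loss in mice blocks αβ T cell development, and its paralogue Rpl22l1 rose side by side. Rpl22 had 1369, 1319 and 1333 CPM in the Apc ICI and 1864, 1966 and 1903 in the AOM PN libraries (0.51, edgeR adjusted p = 0.0178). Rpl22l1 had 455, 527 and 444 against 700, 759 and 659 CPM (0.57, 0.0247). Rps27l had 185, 176 and 158 against 232, 263 and 282 CPM (0.58, edgeR adjusted p = 0.0282), while Rps27 itself had 2966, 2040 and 2326 against 2124, 2758 and 2211 (-0.05, 0.883). The Mdm2-binding Rpl11 was called higher (0.44, 0.0266) and Rpl5 was not (-0.13, 0.425). Of the stalk proteins, Rplp2 was called (0.37, 0.0494), and Rplp0 (0.21, 0.208) and Rplp1 (0.33, 0.0633) were not. By role, 6 of 8 tested genes of the tunnel rim, 6 of 9 of the Diamond-Blackfan list and 2 of 5 paralogues were called higher. Among all tested members it was 50 of 82. Members with and without a pyrimidine run exactly at the start had median changes of 0.39 and 0.44.

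The T/NK-like count depended on single libraries and on which clusters entered. Without Apc ICI 1 there were 0 calls and without Apc ICI 3 there was 1, while leaving out AOM PN 1 or AOM PN 2 gave 11 and 9. Library size scaling without TMM gave 15, with a median change of 0.34 against -0.09 over all genes. The low-depth cluster led by Ikzf2, Ttn and Rora, which held 3.74% ribosomal protein UMIs in the Apc ICI and 7.76% in the AOM PN libraries, made up 364 of 1099 Apc ICI and 159 of 4057 AOM PN T/NK-like cells, and without it 5 members were called, with a median change of 0.30 against -0.01. Mast cell markers, a type abundant in the AOM PN tumours, summed to 89.6 to 162 CPM in T/NK-like cells of the Apc ICI libraries and 325 to 1757 in those of the AOM PN libraries, with 1 of 8 markers at 0 in the Apc ICI and 0 of 8 in the AOM PN group, and their part in the result was not tested.

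Within the T/NK-like class, a pair of Il17a-expressing clusters moved in opposite directions. In the cluster led by Il17a, Il22 and Trdc (381 Apc ICI and 1114 AOM PN cells), with genes of γδ T cells, the share was 16.3, 15.5 and 15.3% in Apc ICI 1 to 3 and 19.8, 20.3 and 22.3% in AOM PN 1 to 3. In the cluster led by Il17a, Trbc2 and Cd3d (150 and 615 cells), it was 30.8, 31.3 and 31.1% against 24.95, 26.4 and 26.3%. Neither pair of groups overlapped. The gap between the clusters was 15.4 points ± 0.759 in the Apc ICI and 5.07 ± 1.10 in the AOM PN libraries, a difference of -10.3 points (two-sided exact permutation p = 0.1, the smallest possible, n = 3 per group). The leading genes of the cluster with Trdc also included Trbc2, and those of the other included Il22. The short names Il22 cluster and Trbc2 cluster thus do not separate them. These clusters and the genes named in them were singled out after their values were seen, and whether each holds the same kinds of cell in both groups was not tested.

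In the Il22 cluster 53 of 81 members were called higher and 1 lower, where 3.63% of genes were called higher and 3.13% lower. The groups did not overlap for 68 members, against 26.8% of genes, and the median change was 0.52 against -0.02 over all genes. Rps12 rose from 2263, 2354 and 2207 to 3828, 3911 and 4892 CPM (0.89, edgeR adjusted p = 0.0039). In the Trbc2 cluster 0 of 81 members were called higher and 21 lower, where 0.989% and 1.41% of genes were, and the groups did not overlap for 57 members, against 23.9%. The median there was -0.31 against -0.01. Leaving out an Apc ICI library gave 15 to 18 calls in the Il22 cluster, and leaving out AOM PN 2 or AOM PN 3 gave 30 and 32. In the Trbc2 cluster, leaving out any library other than AOM PN 2 gave 6 or 7 calls.

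The fall in the Trbc2 cluster was widest among the called members for Rps27rt and, after it, Rpl5. Rpl5 fell from 2670, 2603 and 2568 to 1172, 1386 and 1287 CPM (-1.03, edgeR adjusted p = 0.000942). Rps19, a subunit-maturation protein, fell from 4595, 4710 and 4257 to 2219, 2594 and 2576 CPM (-0.88, 0.00223), and Rps6, the target of the S6 kinases, fell by 0.79 on the log2 scale (0.00705). Rps12 did not pass the test in that cluster, at 4063, 4567 and 4443 against 4359, 4245 and 4648 CPM (0.02, 0.934). In the Il22 cluster Rpl5 had a log2 change of 0.00 (0.997) and Rps19 was called higher (0.45, 0.045).

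**Figure D4:**
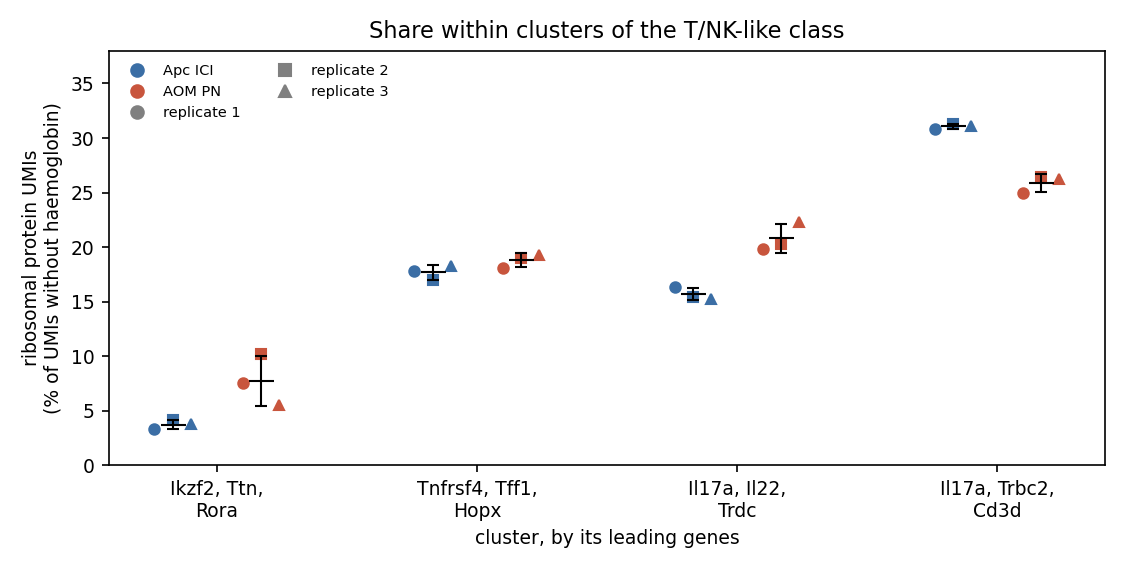
Ribosomal protein UMIs as a percentage of UMIs without haemoglobin (y axis) in the 4 T/NK-like clusters with enough cells in every library (x axis, by leading genes); points are libraries, the dash and bar the mean ± SD (n = 3). The AOM PN libraries are above the Apc ICI libraries in the Il22 cluster and below them in the Trbc2 cluster.

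In neutrophil-like cells members moved in both directions, 24 of 82 with a positive change. Of 82 tested, 2 were called higher and 12 lower, where 15.1% of genes were called higher and 17.6% lower, so the members' count was no greater than the background. The groups did not overlap for 32 members, against 48.8% of all genes. The median change was -0.16 against -0.05 over all genes. Rps19 had 361, 353 and 339 CPM in Apc ICI 1 to 3 and 175, 117 and 207 in AOM PN 1 to 3, well apart (-1.08 ± 0.21, edgeR adjusted p = 0.00651). Rpl5 had 162, 163 and 164 against 85.9, 78.8 and 104 CPM (-0.86, 0.00494), while its partner Rpl11 had 268, 293 and 294 against 260, 250 and 297 (-0.08, 0.692). Rps28 fell by 0.99 on the log2 scale (edgeR adjusted p = 0.0134), Rpl12 of the stalk base by 0.74 (0.0218) and Rpl3 by 0.62 (0.0457).

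Rps9 and Rps27a were the 2 called higher. Both were among the 4 members whose share of the pool was widest apart with neutrophil-like cells on top, of which Rps27 and Rps25 were not called. The higher calls were lost in some settings: after thinning 0 members were called higher and 11 lower, and with the replicate block 0 and 7. Rps9 had 1114, 1310 and 1610 CPM in the Apc ICI and 2507, 1808 and 2129 in the AOM PN libraries (0.68, edgeR adjusted p = 0.0365), and Rps27a 749, 875 and 1079 against 1607, 1185 and 1337 (0.61, 0.0452). Against the same contrast in epithelial-like cells, 21 of 83 members differed in neutrophil-like cells, 19 of them lower (edgeR, interaction of class and group), where 28.2% of genes differed. In the same fit 3 members differed in monocyte/macrophage-like (18.1% of genes), 1 in dendritic-like (11.1%), 2 in T/NK-like (14.2%) and 2 in B-like cells (4.71%).

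The neutrophil-like result depended on scaling. Without TMM, 50 members were called, all lower, with a median of -0.61 where the median of all genes was itself -0.51. Leaving out Apc ICI 1, 2 or 3 gave 4, 4 and 7 calls and leaving out AOM PN 2 gave 6, and keeping doublet-scored barcodes gave 5. The 10 neutrophil markers summed to 75960 to 144343 CPM in the Apc ICI and 132674 to 211426 in the AOM PN class, and different clusters made up most of it: those led by Cstb, Ccl3 and Hmox1 (2466 Apc ICI and 115 AOM PN cells) and by Ifit3, Slfn4 and Ifi27l2a (2283 and 208), against those led by Retnlg (446 and 3555) and by Gm5483 and G0s2 (453 and 3171). The 8 mast markers summed to 28.4 to 101 CPM in the Apc ICI and 285 to 2791 in the AOM PN libraries, with 2 and 1 of them at 0, and their part in the result was not tested. With clusters weighted equally the share still differed by -0.845 points. Cluster by cluster, the groups overlapped in 3 of the 6, among them the clusters that held most AOM PN cells: 2.18 to 2.59% over the Apc ICI and 2.01 to 2.40% over the AOM PN libraries in the Gm5483 cluster, and 2.84 to 3.59% and 2.37 to 3.19% in the Retnlg cluster. They overlapped as well in the cluster led by Slfn4 and Slc7a11. In the cluster led by Il23a and Il1a (753 and 2524 cells) the share was 4.57 to 5.14% against 3.16 to 3.73%, without overlap, and the groups were also apart in the Cstb and Ifit3 clusters, by -1.75 and -0.352 points.

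In epithelial-like cells, the class that Villin-driven Cre targets, 14 members were called higher and 1 lower of 81 tested, where 20.5% of all genes were called higher and 20.3% lower. The groups did not overlap for 34 members, against 54.1% of genes, and the members' median was 0.22 against -0.01. Rpl35 had 1085, 891 and 1041 CPM in Apc ICI 1 to 3 and 1565, 1726 and 1464 in AOM PN 1 to 3 (0.66 ± 0.13, edgeR adjusted p = 0.00353). Rps12 had 3003, 3546 and 3673 against 5796, 4936 and 5149 CPM (0.64, 0.00451), and Rps15 and Rps2, of the small subunit, had log2 changes of 0.61 (0.00787) and 0.52 (0.0167). None of these groups overlapped.

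Different clusters made up most of the epithelial-like class in the 2 groups, so these values compare different mixtures of cells. Those led by Mt4 (615 Apc ICI and 52 AOM PN cells), Krt17 (546 and 46), Ptn (458 and 55) and Ifitm1 (320 and 3) were mostly from the Apc ICI libraries. Those led by Gm26917 (43 and 1260), Pyy (113 and 465) and Igkc (58 and 367) were mostly from the AOM PN libraries. Their ribosomal protein shares ran from 7.83% in the Gm26917 cluster to 32.3% in the Pyy cluster. The Pyy cluster alone had enough cells in every library, and there the groups overlapped, at 35.6, 30.2 and 27.4% in Apc ICI 1 to 3 and 33.1, 33.1 and 30.9% in AOM PN 1 to 3.

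Rps27l, a known p53 target, was higher in the tumours with floxed P53. It had 436, 558 and 539 CPM in the Apc ICI and 713, 702 and 719 in the AOM PN libraries (0.48, edgeR adjusted p = 0.0157), and over the other settings tried its change ranged from 0.05 to 0.75, with the call lost in 3. Rpl22 rose as well (0.39, 0.0287), and the Mdm2-binding Rpl5 (-0.15, 0.376) and Rpl11 (0.15, 0.432) did not pass the test. Nor did Rps6 (0.02, 0.932), Rpsa (0.41, 0.0631) or Rps27 (-0.12, 0.546). Leaving out Apc ICI 1, 2 or 3 gave 5, 6 and 8 calls. Without the Gm26917 cluster 60 members were called, without all low-depth clusters 55, with DESeq2 27, without a filter on low counts 8, with members allowed in clustering 7, and after thinning 1. That 1 was lower, so thinning ended all calls of a higher level, and the members' median was then -0.07. The share of all genes called was not counted under these settings. Where members were allowed in clustering, 0 of them were among the 2000 variable genes, so that setting does not report on clustering by members. How many entered the further clustering of the epithelial-like cells was not counted. Low-depth clusters held 23.8 to 43.0% of epithelial-like cells in the Apc ICI and 68.2 to 78.7% in the AOM PN libraries. In this class the mast markers summed to 24.8 to 98.0 CPM in the Apc ICI and 237 to 1957 in the AOM PN libraries and the 11 T/NK markers to 13.5 to 17 and 145 to 196, and their part in the result was not tested.

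In monocyte/macrophage-like cells 4 of 83 members were called higher and 0 lower, where 1.69% and 2.16% of genes were, while 52 members did not overlap between groups, against 28.9% of genes. The median change was 0.37 against -0.02. Rps9 had 2738, 2515 and 3008 CPM in the Apc ICI and 5300, 3739 and 4943 in the AOM PN libraries (0.76, edgeR adjusted p = 0.0439), and Rpl10 1754, 1673 and 1662 against 2873, 2595 and 3131 (0.76, 0.0197). Rps16 (0.62, 0.0473) and Rpl23a (0.58, 0.0452) were the others. DESeq2 called 30 members, the test without a filter 27 and library size scaling 2. Leaving out any Apc ICI library gave 0, AOM PN 1 gave 1 and AOM PN 2 gave 14, and leaving out the low-depth cluster gave 1, with a median change of 0.42. That cluster, led by C1qa, C1qb and Apoe, held 975 of 2040 Apc ICI and 812 of 6428 AOM PN cells, so the groups compare different mixtures. The 8 mast markers summed to 13.8 to 55.6 CPM in the Apc ICI and 126 to 1238 in the AOM PN libraries, and their part in the result was not tested.

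In dendritic-like cells edgeR called 0 of 81 members, with 12 at an unadjusted p under 0.05 and 2 called by DESeq2, where 0.614% of genes were called higher and 0.319% lower. The groups did not overlap for 19 members (20.9% of genes). In B-like cells 0 were called higher and 3 lower of 81, where 0.775% and 0.592% of genes were, and 23 did not overlap (18.7% of genes). Besides Rps27rt these were Rpl17, at the tunnel rim, with 5420, 5292 and 5472 CPM in the Apc ICI and 3370, 3525 and 4114 in the AOM PN libraries (-0.55, edgeR adjusted p = 0.0224), and Rpl4, which lines the tunnel, with 1023, 992 and 1058 against 522, 728 and 700 (-0.64, 0.0499). Leaving out any Apc ICI library or AOM PN 1, or keeping doublet-scored barcodes, gave 1 call in B-like cells. The 8 mast markers summed to 21.1 to 57.5 CPM in B-like cells of the Apc ICI and 992 to 2185 in those of the AOM PN libraries. In dendritic-like cells they summed to 81.5 to 96.8 and 190 to 1237 CPM, and their part in these results was not tested.

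Across classes, 2 of the 81 members tested in all 6 did not overlap between groups in any of them, where 0.626% of 4630 genes did not. Rps25 was higher in the AOM PN libraries throughout, with log2 changes from 0.27 to 0.58, and passed the test in epithelial-like and T/NK-like cells. In T/NK-like cells it had 1285, 1200 and 1097 CPM in Apc ICI 1 to 3 and 1695, 1699 and 1890 in AOM PN 1 to 3 (0.56, edgeR adjusted p = 0.0216). Rps25 was singled out after its values were seen.

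Rps27rt was lower in the AOM PN libraries in all 6 classes, with log2 changes from -1.65 to -0.81. In epithelial-like cells it had 43.3, 44.0 and 44.2 CPM in Apc ICI 1 to 3 and 16.2, 22.9 and 14.98 in AOM PN 1 to 3 (-1.29 ± 0.16, edgeR adjusted p = 0.000343). In B-like cells, where it was most abundant, it had 208, 173 and 181 against 53.8, 79.3 and 53.8 CPM (-1.65 ± 0.21, 0.000605). It also passed the test in neutrophil-like (-1.33, 0.00359) and T/NK-like cells (-1.16, 0.0216), and missed it in dendritic-like (-1.16, 0.0523) and monocyte/macrophage-like cells (-0.81, 0.0633). The strain background of the groups is not given in the sources used here. Over all settings tried the change was below 0 in every class. It lost its call in 3 settings in T/NK-like cells.

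Its parent Rps27 was called in none of the 6 classes, though it was called lower in the Trbc2 cluster (-0.82, edgeR adjusted p = 0.0405), and the ratio of the pair separated the groups. Per 1000 Rps27 UMIs, epithelial-like cells held 24.3, 35.2 and 28.9 Rps27rt UMIs in Apc ICI 1 to 3 and 11.5, 15.1 and 11.9 in AOM PN 1 to 3. Class means ran from 26.9 to 34.3 in the Apc ICI and from 11.9 to 14.3 in the AOM PN group, without overlap in any class (two-sided exact permutation p = 0.1 each, the smallest that 3 against 3 allows). The classes of a library share its animal and preparation, so they are not independent replicates of this difference. Because the copies share all but their last bases, the count of Rps27rt holds only those reads that the counting could place. Whether these were placed on the right copy was not tested, nor was the part of Gm17241, which shares windows with both.

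**Figure D5:**
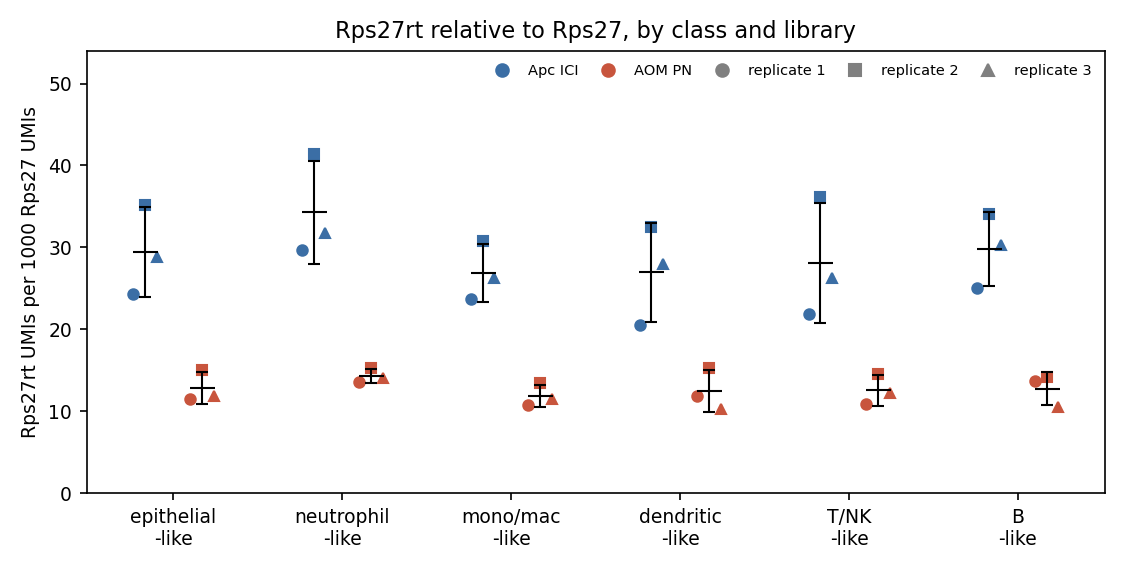
Rps27rt UMIs per 1000 Rps27 UMIs (y axis) in 6 classes (x axis); points are libraries, the dash and bar the mean ± SD (n = 3). In each class all 3 AOM PN libraries lie below all 3 Apc ICI libraries, and Apc ICI 2 is the highest.

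Many members differed between libraries of the same group, in the same direction in every class. Of 79, 16 were higher and 37 lower in Apc ICI 1 than in Apc ICI 2 in all 6 classes. In the share of the ribosomal protein pool, Rps27 was higher in Apc ICI 1 than in Apc ICI 2 by 0.64 on the log2 scale (mean of 6 classes) and higher in AOM PN 2 than in AOM PN 1 by 0.53, with the same sign in 6 of 6 classes. Rps28 (0.64 and 0.53), Rps29 (0.67 and 0.45), Rpl38 (0.57 and 0.40) and Rpl35 (0.46 and 0.41) followed the same pattern. These genes were picked for the size of their offsets. Among others, Rpl10a (-0.24 and -0.29), Rpl12 (-0.19 and -0.29) and Rps4x (-0.23 and -0.25) went the opposite way. Over 79 members the median SD of these library offsets was 0.07. Across those members, the offset between Apc ICI 1 and 2 had a Pearson r of -0.31 with the log2 length of the shortest transcript, and that between AOM PN 2 and 1 had -0.30, as a description over genes that share libraries. In neutrophil-like cells, where Rps28 was called lower, it had 638, 417 and 504 CPM in Apc ICI 1 to 3 and 186, 306 and 291 in AOM PN 1 to 3, and the groups did not overlap.

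Other genes of the ribosome were read from the same tests. Of the ribosomal proteins that the naming rule misses, Fau, the source of Rps30, was called higher in T/NK-like (0.48) and monocyte/macrophage-like cells (0.61). The paralogue Rpl36al was lower in neutrophil-like cells (-0.94).

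The mitochondrial ribosomal protein genes were called in 3 classes. In epithelial-like cells 27 of 77 were called higher and 0 lower (median 0.31), where 20.5% and 20.3% of all genes were. In T/NK-like cells it was 19 and 0 of 77 (0.38), where 3.69% and 3.04% of genes were, and in neutrophil-like cells 2 and 22 of 74 (-0.44), where 15.1% and 17.6% were. These shares of all genes hold for the counts that follow in the same classes. In monocyte/macrophage-like, dendritic-like and B-like cells edgeR called 0 of 77, 76 and 65, with 13, 8 and 7 at an unadjusted p under 0.05 and 0 called by DESeq2 in each. Mrps6 led in epithelial-like cells (0.95), and Mrps18b fell by 2.27 on the log2 scale in neutrophil-like cells.

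Ribosome biogenesis factors were called in 2 classes. In epithelial-like cells 8 of 30 were higher, near the 20.5% of all genes, and 1 lower, with Rrp12, of subunit export, at 0.87 and Rrs1, of 5S RNP loading, at 0.66 against Ltv1, of 40S maturation, at -0.43. In neutrophil-like cells 13 of 28 were lower and 0 higher, where 17.6% and 15.1% of genes were, led by the nucleolar GTPase gene Gnl3, at 24.8, 20.7 and 22.6 CPM in the Apc ICI and 3.22, 3.59 and 3.20 in the AOM PN libraries (-2.75, edgeR adjusted p = 5.8e-05), and by Nop16 (-1.87). In T/NK-like cells, where the ribosomal protein genes rose, edgeR called 0 of 30 factors, with 7 at an unadjusted p under 0.05 and 2 called by DESeq2.

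Of 16 elongation and initiation factors known as TOP mRNAs, 11 were matched in the RefSeq table, and the pyrimidine run stood at the annotated start of 1 and within 5 bases in 4. In all, 3 were higher in T/NK-like cells (3.69% of all genes), among them Naca (0.61) and Eef1b2 (0.58), and 4 were lower and 1 higher in neutrophil-like cells, with Eef1a1 falling by 0.75 on the log2 scale and Pabpc1 at 0.65. In epithelial-like cells 1 was lower, Pabpc1 (-0.38), and in monocyte/macrophage-like cells 1 was higher, Tpt1 (0.57). Of 10 RNA polymerase I genes 1 was higher (Tcof1, 0.67) and 1 lower (Taf1b, -0.63) in epithelial-like cells, below the shares of all genes, and in neutrophil-like cells, with 8 tested, Polr1a was higher (1.08) and Polr1c lower (-1.05).

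Among 13 regulators of ribosomal protein synthesis, 3 were called higher in epithelial-like cells, near the 20.5% of all genes. Mycn had 2.83, 2.27 and 1.68 CPM in the Apc ICI and 11.2, 15.6 and 22.2 in the AOM PN libraries (2.80, edgeR adjusted p = 0.000195), and Myc 26.0, 29.6 and 24.6 against 44.8, 63.4 and 72.2 (1.15, 0.00106). Tsc1, an inhibitor of mTOR, and Rptor, a subunit of mTOR complex 1, were both lower in neutrophil-like (-1.82 and -1.40) and T/NK-like cells (-0.96 and -0.74). In neutrophil-like cells 3 of 12 were lower and 2 higher in all, the latter being Rheb (0.63), which activates mTOR complex 1, and the S6 kinase gene Rps6kb2 (0.82). Of 13 genes of ribosome rescue and dormancy, 3 were higher and 1 lower in epithelial-like cells and, of 11 tested, 1 and 2 in neutrophil-like cells, counts near or below the shares of all genes. Pelo (1.39) and Eef2k (0.62) were higher and Nemf (-0.72) lower in epithelial-like cells, and Eef2k (1.39) was higher and Usp10 (-2.16) and Abce1 (-1.51) lower in neutrophil-like cells.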

How the data were processed

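UMI counts per gene and barcode were deposited by the authors, made with Cell Ranger 6.1.2 on mm10, per the submitters' processing notes. How barcodes were called as cells and how reads matching several genes were treated are not given in the sources used here. Of 64505 barcodes, 50875 had 200 genes or more and no more than 20% of UMIs from mitochondrial genes; doublet scores from simulated doublets removed 3873 (4.00 to 10.2% per library), and 47002 cells remained. Cells were clustered (Leiden, leidenalg 0.10.2; 2000 variable genes, none of them a ribosomal protein gene, and no haemoglobin genes; 30 components) and named by markers. Counts were summed per library and class, in libraries with at least 20 cells. Shares exclude haemoglobin UMIs from the denominator; CPM after TMM include them. Tests were edgeR 4.0.16 quasi-likelihood (filterByExpr, TMM, Benjamini-Hochberg over all genes, 0.05) and exact permutation tests over libraries; DESeq2 1.42.0 was an alternative. In data simulated from the real counts, with 200 genes changed per class, 2-fold changes were recovered for 97% (epithelial-like, 12955 genes), 69% (neutrophil-like, 9506), 92% (monocyte/macrophage-like, 11058), 95% (dendritic-like, 8790), 91% (T/NK-like, 10552) and 76% (B-like, 4902), and 4-fold changes for at least 99% in each. Of the calls made there, 8.70% were false in neutrophil-like, 7.28% in T/NK-like, 6.25% in dendritic-like, 5.91% in B-like, 5.29% in epithelial-like and 3.03% in monocyte/macrophage-like cells. The changed genes were drawn only from those with a mean of at least 50 CPM. Recovery of weaker genes, such as Mycn, Gnl3 or Rps27rt in epithelial-like cells, was not measured.

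The members and gene lists were chosen with earlier results of these data known. Genes named are, per class, the called members farthest from the members' median (5 each way, at least 50 CPM), the 10 with the widest spread between classes, fixed paralogue pairs and functional members, the 5 most abundant, and the 2 largest calls of each other list; exceptions are said to be so. A few genes that this rule names are not reported here. Values in brackets after a gene without a label are its log2 change and edgeR adjusted p. Replicate numbers were the same in both groups, but the labels give no shared animal or day, so the groups were not paired. Transcript windows and coordinates come from GENCODE vM21 and start sequences from RefSeq, both of the GRCm38 assembly.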

Additional observations from a re-analysis of the deposited data

Results flagged for a closer look

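The change between groups differed between classes for several members, by the class-by-group interaction in edgeR (log2 change in the named class minus that in epithelial-like cells, adjusted over all genes). Members differed less often than genes at large. Of 83 members, 21 differed in neutrophil-like (28.2% of all genes), 3 in monocyte/macrophage-like (18.1%) and 1 in dendritic-like cells (11.1%). It was 2 in T/NK-like (14.2%) and 2 in B-like cells (4.71%). In neutrophil-like cells the difference was -1.09 for Rps19 (adjusted p = 4.24e-05), -1.07 for Rpl12 (1.89e-05), -1.05 for Rps27l (0.000338), -0.85 for Rps28 (0.000484), -0.70 for Rpl22 (0.000991), -0.66 for Rps2 (0.00437) and -0.60 for Rplp1 (0.00902). It was -0.55 for Rpl5 (0.0105), -0.54 for Rps15 (0.0118), -0.53 for Rpsa (0.0215) and -0.49 for Rpl35 (0.0374), and it was positive for Rps9 (0.71, 0.00211) and Rps27a (0.57, 0.0125). In monocyte/macrophage-like cells it was 0.71 for Rpl7 (0.00238) and 0.64 for Rps9 (0.00824). Rpl7 also differed in dendritic-like (0.51, 0.0418) and T/NK-like cells (0.67, 0.00516), and Rpl4 in B-like cells (-0.61, 0.0481). Outside the naming rule, and named after their values were seen, Rps9 differed in T/NK-like cells (0.50, 0.0473), Rps19 in B-like cells (-0.65, 0.0380) and Rpl9 in monocyte/macrophage-like cells (0.47, 0.0435). In neutrophil-like cells Rpl36, Rps20, Rpl32, Rps18, Rpl19 and Rpl13 were among the others that differed, from -0.67 to -0.44. For Rpl7 the change in epithelial-like cells was -0.31 and did not itself pass the test (edgeR adjusted p = 0.142). The Gm26917 cluster and the other low-depth clusters make up different shares of the epithelial-like class in the 2 groups, and their part in these differences was not tested.

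The difference of -10.3 points between the Il17a-expressing T/NK-like clusters, AOM PN against Apc ICI, reached only the smallest p that the exact permutation test allows (0.1).

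The 9 ribosomal protein pseudogene features, outside the naming rule, held 18882 UMIs, 0.00575% of non-haemoglobin UMIs. Rpl27-ps3 (7301), Rpl10-ps3 (5016) and Rps12-ps3 (2706) held most of them, and Rpl36-ps4 held none. Pseudogene features carry sequence close to that of their parents, and whether these UMIs are reads of the parents was not tested.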

How the results depend on the processing

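Clusters left out or weighted equally, and all alternatives for the 2 T/NK-like clusters, were chosen after seeing the data. The difference in share (AOM PN minus Apc ICI, points) moved as follows. Epithelial-like: -4.40 as a mean over cells, -1.53 thinned, 2.99 without low-depth clusters, 3.66 without the Gm26917 cluster. Neutrophil-like: -0.862 with doublets kept, -0.845 with clusters weighted equally. T/NK-like: 7.79 as a mean over cells, 3.11 without the low-depth cluster, 1.27 with clusters weighted equally. B-like: 2.98 as a mean over cells. Thinned, epithelial-like cells differed from neutrophil-like by 14.4, monocyte/macrophage-like by 1.63, dendritic-like by -2.61, T/NK-like by -2.80 and B-like cells by -12.7. Leaving out 1 library, the share difference ranged from 0.686 to 2.02 (epithelial-like), -1.34 to -0.977 (neutrophil-like), 1.05 to 3.02 (monocyte/macrophage-like), -0.183 to 1.33 (dendritic-like), 4.05 to 4.63 (T/NK-like) and -2.27 to -0.567 (B-like).

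Members called: DESeq2 gave 27 epithelial-like, 30 monocyte/macrophage-like and 2 dendritic-like; no filter 8, 27 and 2; library size scaling 50 neutrophil-like, 2 monocyte/macrophage-like, 15 T/NK-like and 11 in the Trbc2 cluster. Thinning left 1 epithelial-like. Doublets kept gave 5 neutrophil-like, 1 dendritic-like and 1 B-like. Members allowed in clustering gave 7 epithelial-like and 1 dendritic-like, though 0 members were then among the 2000 variable genes, so this does not report on clustering by members. Without low-depth clusters there were 55 epithelial-like, 1 monocyte/macrophage-like and 5 T/NK-like calls, and without the Gm26917 cluster 60 epithelial-like. Leaving out 1 library gave 5 to 14 epithelial-like, 4 to 10 neutrophil-like, 0 to 14 monocyte/macrophage-like, 0 to 1 dendritic-like, 0 to 39 T/NK-like, 1 to 3 B-like, 15 to 62 Il22 cluster and 6 to 20 Trbc2 cluster calls. Where these differ from the main count, the cause was not tested, except that fewer libraries entered the last. The share of all genes called was counted for the main settings only.

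Deviations of same-numbered libraries correlated from -0.357 to 0.292, and no class had all 3 above 0.1. No other pairing was set beside these values, so they cannot show whether same-numbered libraries shared a day. With the replicate block, 4 epithelial-like, 7 neutrophil-like, 0 monocyte/macrophage-like, 8 T/NK-like, 8 Il22 cluster and 8 Trbc2 cluster members were called.

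For named members, 49 of 384 alternative values lost a call in neutrophil-like, 122 of 430 in T/NK-like, 42 of 391 in epithelial-like, 28 of 365 in monocyte/macrophage-like and 15 of 300 in B-like cells, and no called value changed sign. Depth limits Rpl39l, Rpl3l outside neutrophil-like cells, and Rps27rt in B-like cells of AOM PN 1 (10 UMIs).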
